A study of Homo sapiens with 6 samples.

Results

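The genes described here encode 2-oxoglutarate dioxygenases that act on chromatin, nucleic acids and the translation machinery. They comprise 16 JmjC histone demethylases, 8 small JmjC enzymes, 9 AlkB-type enzymes including FTO, 3 TET enzymes, 3 OGFOD proteins and 4 further oxygenases. Members were chosen by gene symbol, as a family of oxygen-using enzymes from which the collagen and HIF hydroxylases were left out, and 43 of the 30726 gene rows of the deposited table matched. Sequencing had been done on polysome-associated RNA of 3 established breast cancer lines of human origin, all labelled wild type: SUM1315, a triple negative line, T47D, a luminal A line, and the HER2-positive luminal line SKBR3. Each line gave 1 library from cells in normoxia (21% oxygen) and 1 library from cells kept at 1% oxygen for 8 h (hypoxia), 6 libraries in all. Cycloheximide was applied in every group before harvest. According to the series' design text, the question was what low oxygen does to translation. Each line was grown in its own medium, with epidermal growth factor in that of SUM1315 only and no added insulin in that of SKBR3, so that line and medium cannot be told apart.

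Dioxygenases of this family use molecular oxygen, ferrous iron and 2-oxoglutarate to hydroxylate their substrates. Hydroxylation of a methyl group leads to its removal from histones by JmjC demethylases and from nucleic acids by AlkB enzymes, and TET enzymes oxidise methylcytosine in DNA. Other members hydroxylate proteins, among them ribosomal proteins, a translation termination factor and a splicing factor. HIF, the transcription factor that is stabilised when oxygen is low, is known to induce several histone demethylase genes, KDM3A, KDM4B and KDM5B among them.

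HIF binds DNA at a short core sequence, and the promoters of 4 members are shown because their mRNAs had the clearest rises or came near to one. The RefSeq promoter table (GRCh38.p14) held 38 of the 43 members, RIOX1 not among them. The 250 bases before each annotated start were searched on both strands for ACGTG and GCGTG. Hits of ACGTG on both strands overlap where the letters read CACGTG. Capitals mark the matches, and sequences run 5′ to 3′ on the strand of the gene. For KDM4B (chr19:4968863-4969112, plus strand) and ALKBH5 (chr17:18183578-18183827, plus strand) the whole window is printed. For KDM3A (chr2:86441333-86441362, plus strand) and KDM5B (chr1:202808468-202808497, minus strand) 30 bases around the match are printed. Of their windows of 250 bases, 223 (KDM3A) and 250 (KDM5B) lay in annotated exons.
KDM3A: ccgggaggctgtGCGTGtcttgtgagagct
KDM4B: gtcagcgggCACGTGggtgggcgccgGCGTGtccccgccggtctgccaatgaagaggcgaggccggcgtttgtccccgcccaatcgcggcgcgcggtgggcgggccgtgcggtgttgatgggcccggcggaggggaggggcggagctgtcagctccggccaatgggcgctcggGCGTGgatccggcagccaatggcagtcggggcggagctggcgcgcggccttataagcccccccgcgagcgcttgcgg
KDM5B: cggaggcgcacgGCGTGggcttgcggcgag
ALKBH5: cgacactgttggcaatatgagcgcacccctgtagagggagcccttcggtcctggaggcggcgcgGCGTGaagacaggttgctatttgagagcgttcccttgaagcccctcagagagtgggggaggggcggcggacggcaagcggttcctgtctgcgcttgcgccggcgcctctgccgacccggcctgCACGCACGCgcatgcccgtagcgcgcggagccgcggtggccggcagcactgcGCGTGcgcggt

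In KDM3A the match lay 26 to 22 bases before the start, and in KDM5B 64 to 60 bases before it. KDM4B held CACGTG, read as ACGTG on either strand, at 241 to 236 bases before the start and GCGTG at 224 to 220 and at 77 to 73 bases. In ALKBH5 there were 4 matches of GCGTG, of which the 2 on the opposite strand shared a base. KDM6B, whose mRNA came about as near to a rise as that of ALKBH5, held 1 match of GCGTG and is not shown. The most matches, 5 each with both strands counted, were in the promoters of KDM4C, KDM6A, HSPBAP1 and TET3. Of these genes, KDM4C and KDM6A were higher in hypoxia in all 3 lines, TET3 was lower in all 3, and HSPBAP1 went both ways. A match to either motif was present in 25 of the 38 member promoters (65.8%), against 43.2% of all 35116 promoters in the table and 59.6% of the 7960 promoters of genes tested below. GCGTG was present in 23 member promoters (60.5%, against 32.2% and 47.4%) and ACGTG in 7 (18.4%, against 18.5% and 24.7%). Of the histone demethylase promoters 10 of 16 (62.5%) held a match, and of the other members' promoters 15 of 22 (68.2%). These are matches of letters and not binding sites.

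The libraries carried the markers of their lines. The HER2 gene ERBB2 stood at 615 and 743 RPKM in SKBR3 and at 5.34 to 8.76 RPKM elsewhere. The hormone receptor genes ESR1 and PGR stood at 4.54 to 11 RPKM in T47D and under 0.04 RPKM elsewhere. VIM (407 and 1161), AXL (121 and 113) and CD44 (45.9 and 62.6 RPKM) marked SUM1315. Of the leukocyte and stromal markers, PTPRC, CD3E, CD14 and PECAM1 did not exceed 0.145 RPKM and COL3A1 was 0 in all 6 libraries, while COL1A1 stood at 91.7 and 119 RPKM in SUM1315. By the steps in the values, 1 RPKM on 1 kilobase of transcript was worth 21.7 to 33.4 reads or read pairs, and 9675 to 10842 genes per library reached 1 RPKM. RPKM, a read count scaled to transcript length and library size, gives a gene's share of the polysome RNA sequenced. An mRNA lower on polysomes in all cells and one lost from some cells cannot be told apart in these bulk lysates, nor can a change in mRNA amount be told from one in ribosome loading.

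Under hypoxia the polysome-associated mRNAs of 2 histone demethylases, KDM3A and KDM4B, rose and that of the ribosomal protein hydroxylase RIOX1 fell. The other members tested did not pass. A gene had to reach 1 RPKM in 3 or more of the 6 libraries to be tested, with limma on log2(RPKM + 1), with the line as a block and the p-values adjusted over all 10253 genes. Of the 43 members 33 were tested and 10 were below the filter. The 2 rises stand beside 4.12% of all tested genes that rose, and the 1 fall beside 2.26% that fell. Of the 33, 15 (45.5%) had an unadjusted p under 0.05, as did 2692 (26.3%) of all tested genes. The median log2 fold change of the 33 was 0.01, against -0.01 over all tested genes.

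**Figure D1:**
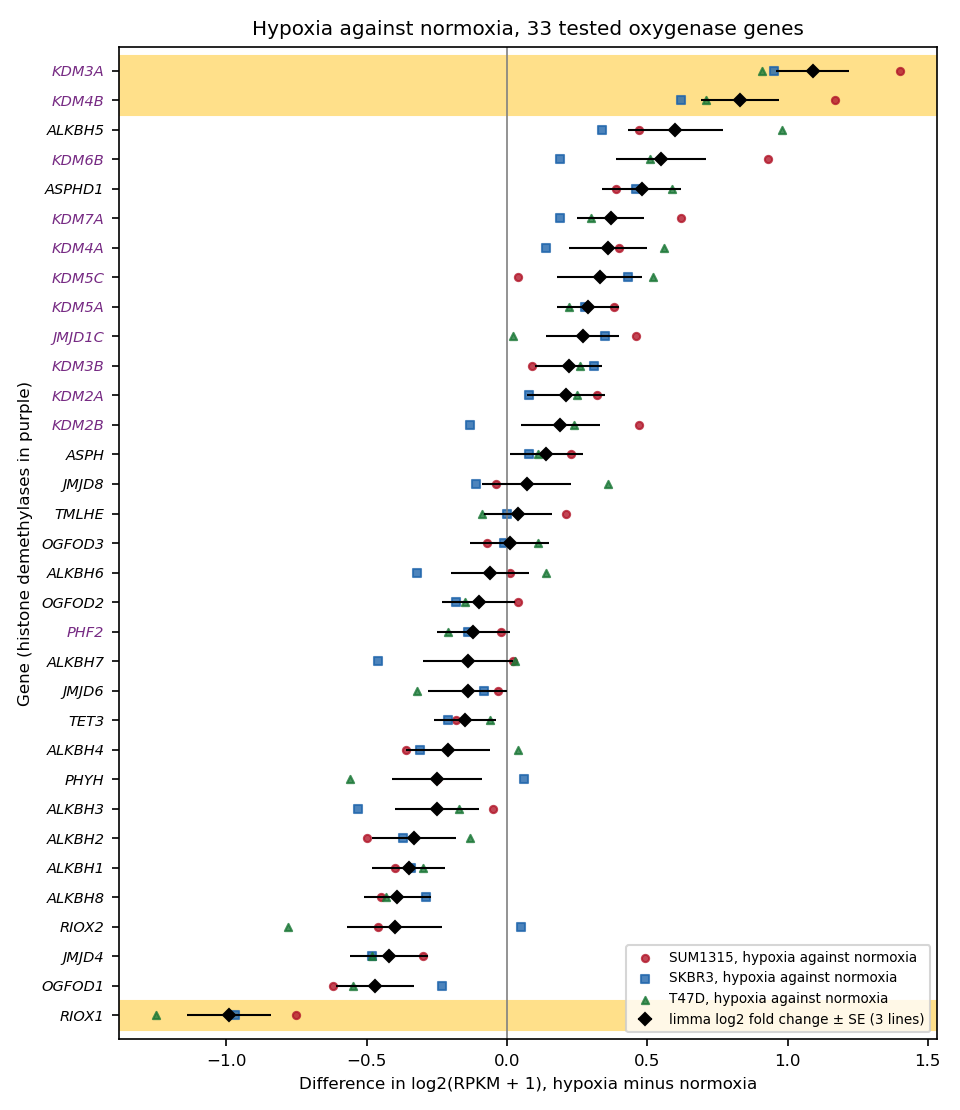
Difference in log2(RPKM + 1) between hypoxia and normoxia for the 33 tested genes, with each line's single ratio as a coloured symbol and limma's fold change ± SE over 3 lines as a black diamond; gene names in purple are histone demethylases and shaded rows passed the test. KDM3A (1.09) and KDM4B (0.83) stood at the top, RIOX1 (-0.99) at the bottom, and 11 of the 12 histone demethylases lay above 0.

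Most of the histone demethylase mRNAs were higher in hypoxia in each line. Without regard to any filter, 13 of the 16 were higher in hypoxia in all 3 lines and 1, PHF2, was lower in all 3. The share over all rows without a filter was not counted, for these or for the 27 other members. Of the 12 that were tested, 10 were higher in all 3 lines, where 23.5% of all tested genes were, and 11 had a fold change above 0, as did 5042 of the 10253. Their median log2 fold change was 0.31 (all tested genes -0.01), and it was 0.43, 0.23 and 0.28 within SUM1315, SKBR3 and T47D. KDM3A, KDM4B and KDM5A are among the 12 and passed the filter only through their hypoxic values. The counts and medians of the 12 are thus not independent of the filter. Counted among the 27 members that are not histone demethylases were KDM8, RIOX1 and RIOX2, and the split depends on this assignment. Of these 27, 5 were higher and 11, KDM8 and RIOX1 among them, lower in all 3 lines. Of the 21 of these that were tested, 9 were lower in all 3 lines, where 25.2% of all tested genes were, 15 fold changes lay below 0, and the median was -0.15. The difference between the classes was not tested. Among tested genes the 12 demethylase mRNAs were also scarcer, with a median of 3.0 RPKM in normoxia against 6.28 RPKM over all, and longer, with a median transcript of 6404 bases against 3071. Over 10011 tested genes the fold change had a Spearman correlation of -0.20 with the mean level, 0.18 with the GC content and 0.02 with the length of the transcript, a description across genes. A fit added after seeing the data had length and GC trends removed. In it PHF2 stood at -0.20 and the other tested demethylases at 0.13 (KDM2B) to 1.09 (KDM3A). The part of level and GC content in the class pattern was not tested.

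**Figure D2:**
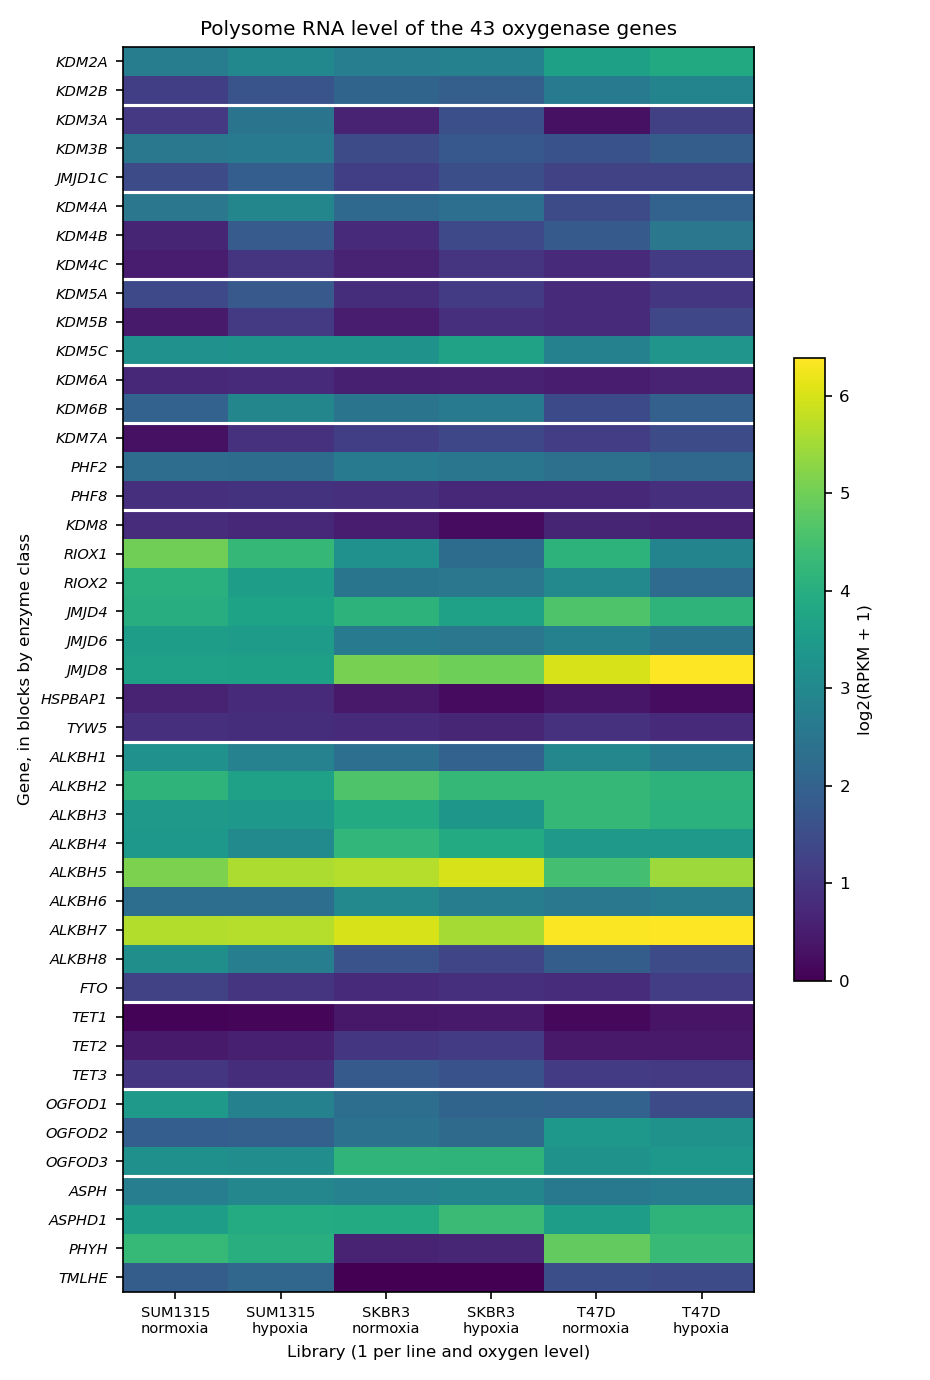
Heat map of log2(RPKM + 1) for the 43 genes (rows, in blocks by enzyme class) in the 6 libraries (columns). ALKBH7 and ALKBH5 were the brightest rows over all 6 libraries, the TET1, HSPBAP1 and KDM6A rows were dark in each, and PHYH and TMLHE were dark in SKBR3 alone.

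KDM3A removes mono- and dimethyl marks from H3K9, a modification of silent chromatin, and its mRNA had the highest log2 fold change of the family with the pseudocount of 1. Its level moved from 1.09 to 4.51 RPKM in SUM1315, from 0.542 to 1.97 RPKM in SKBR3 and from 0.224 to 1.3 RPKM in T47D. All 3 hypoxic libraries stood above all 3 normoxic ones, and the RPKM ratios within the lines were 4.14, 3.63 and 5.80. The limma log2 fold change was 1.09 ± 0.13 (SE, n = 3 lines, adjusted p = 0.0022). The size of this value depends on the pseudocount, and it was 1.92 with a pseudocount of 0.1 and 0.41 with 5, where ALKBH5 stood higher (0.54, not passing). Between 27 (normoxic T47D) and 488 (hypoxic SUM1315) reads or read pairs stood behind each value by the steps of the libraries. KDM3A (ENSG00000115548) spans bases 86440647 to 86492716 of chromosome 2 (plus strand, GRCh38).

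Its paralogs with the same substrate did not pass. KDM3B stood at 4.92 and 5.31 RPKM in SUM1315 (normoxia, then hypoxia), 1.74 and 2.40 RPKM in SKBR3 and 2.06 and 2.67 RPKM in T47D, a log2 fold change of 0.22 ± 0.12 (limma adjusted p = 0.282). JMJD1C stood at 1.75 and 2.77, 1.28 and 1.89, and 1.35 and 1.37 RPKM in the same order, a log2 fold change of 0.27 ± 0.13 (adjusted p = 0.206). Both were higher in hypoxia in every line, but the oxygen groups overlapped. KDM3A was the scarcest of the 3 in every normoxic library and, in SUM1315 and SKBR3, lay above JMJD1C in hypoxia.

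KDM4B acts on trimethylated H3K9 and H3K36, and it was the other demethylase to rise. Its level moved from 0.582 to 2.56 RPKM in SUM1315, from 0.738 to 1.67 RPKM in SKBR3 and from 2.53 to 4.77 RPKM in T47D. The groups overlapped, since normoxic T47D stood above hypoxic SKBR3, but each line was higher in hypoxia, by 4.39, 2.27 and 1.88 times in RPKM. The limma log2 fold change was 0.83 ± 0.14 (adjusted p = 0.0105), and it was 1.31 with a pseudocount of 0.1 and 0.34 with 5. KDM4B (ENSG00000127663) spans bases 4969113 to 5153595 of chromosome 19 (plus strand, GRCh38).

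Of its paralogs, KDM4A was more abundant and did not pass, at 4.82 and 6.66 RPKM in SUM1315, 3.54 and 4.00 RPKM in SKBR3 and 1.73 and 3.01 RPKM in T47D (log2 fold change 0.36 ± 0.14, limma adjusted p = 0.126). KDM4C was below the filter. It stood at 0.415, 0.562 and 0.703 RPKM in the normoxic SUM1315, SKBR3 and T47D libraries and at 0.977, 0.935 and 1.18 RPKM in the hypoxic ones. The KDM4C groups did not overlap.

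With any line left out, and the genes tested kept as with all 6 libraries, the KDM3A, KDM4B and RIOX1 calls held. They were lost without the expression filter (adjusted p = 0.40, 0.416 and 0.40 in the order named) and without the line as a block (adjusted p = 1.00 for each). KDM3A, KDM4B and KDM5A reached 1 RPKM in 1 of 3 normoxic and in all 3 hypoxic libraries, so that they entered the test through the hypoxic group, and at a filter of 3 RPKM KDM3A and KDM4B were not tested. Had the filter been applied anew, KDM3A would not have been tested without SUM1315 (0.542 and 0.224 RPKM in the normoxic libraries left). The same holds for KDM4B without T47D (0.582 and 0.738 RPKM). The calls with a line left out are thus not independent of the omitted libraries.

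The KDM5 enzymes remove methyl groups from H3K4, a mark of active promoters. KDM5B was below the filter but its oxygen groups did not overlap: it stood at 0.372, 0.418 and 0.704 RPKM in normoxic SUM1315, SKBR3 and T47D and at 1.14, 0.832 and 1.58 RPKM in hypoxia. The RPKM ratios were 3.06, 1.99 and 2.24, on 83 to 363 reads or read pairs per library. In a fit with a filter of 0.3 RPKM and a pseudocount of 0.1, chosen after seeing the data, 42 members were tested and KDM5B rose, with a log2 fold change of 1.10 ± 0.21 (limma adjusted p = 0.0343). That fit called 2.99% of 13009 genes higher, and KDM3A (1.92), KDM4B (1.31) and RIOX1 (-1.09) passed in it too. KDM4C did not pass there (0.79 ± 0.20, adjusted p = 0.0681). KDM5B (ENSG00000117139) spans bases 202724495 to 202809470 of chromosome 1 (minus strand, GRCh38).

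**Figure D3:**
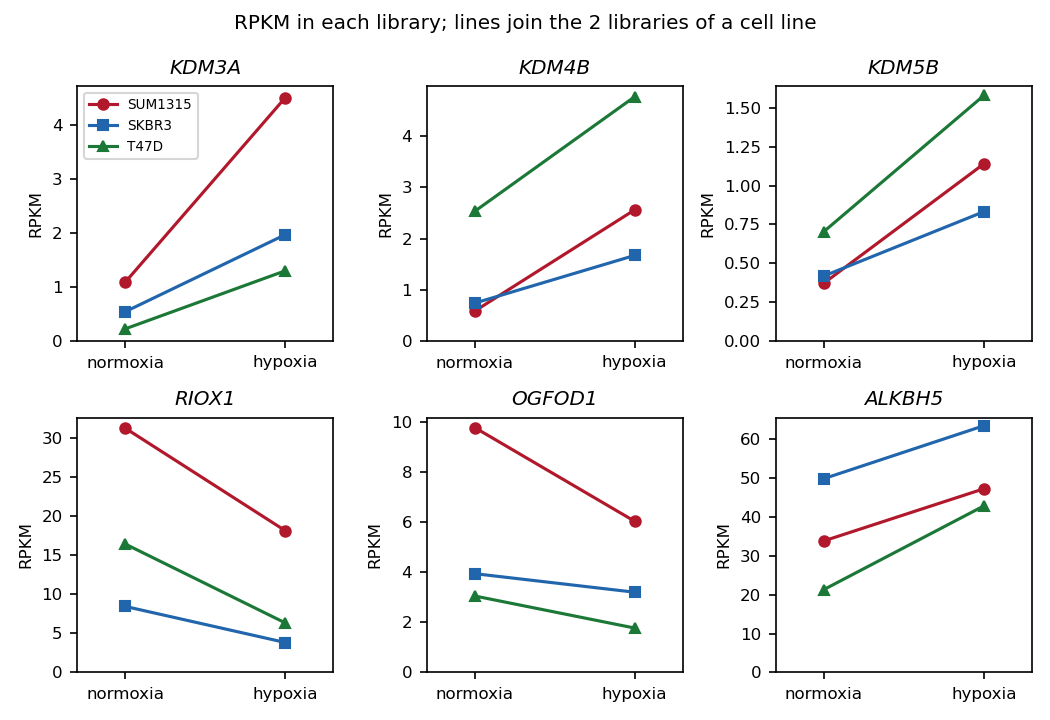
RPKM of 6 genes at normoxia and hypoxia, with 1 point per library, a colour and symbol per line, and a segment joining the 2 libraries of a line. KDM3A, KDM4B, KDM5B and ALKBH5 were higher and RIOX1 and OGFOD1 lower in hypoxia in every line.

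The other KDM5 genes tested did not pass. KDM5C was the most abundant of the 3, at 8.45, 8.56 and 5.98 RPKM in normoxic SUM1315, SKBR3 and T47D and at 8.73, 11.9 and 9.0 RPKM in hypoxia. All hypoxic values lay above all normoxic ones, but in SUM1315 by a log2 ratio of 0.04 only, and the fold change was 0.33 ± 0.15 (limma adjusted p = 0.191). KDM5A stood at 0.734 to 1.65 RPKM in normoxia and 1.02 to 2.44 RPKM in hypoxia, with overlapping groups and a log2 fold change of 0.29 ± 0.11 (adjusted p = 0.135).

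For H3K27, the mark laid down by Polycomb, KDM6B stood far above its paralog KDM6A. KDM6B moved from 3.03 to 6.70 RPKM in SUM1315, from 4.51 to 5.30 RPKM in SKBR3 and from 1.72 to 2.88 RPKM in T47D. Its fold change, 0.55 ± 0.16, did not pass (limma adjusted p = 0.0649). Without SKBR3, the line with the smallest ratio, it did, at 0.72 (adjusted p = 0.034), while leaving out SUM1315 gave 0.35 (adjusted p = 0.269) and leaving out T47D gave 0.56 (adjusted p = 0.194). KDM6A remained at 0.424 to 0.696 RPKM in all 6 libraries and was not tested.

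The KDM2 enzymes demethylate H3K36, and KDM2B also brings Polycomb proteins to unmethylated CpG islands. KDM2A stood at 5.37 to 11.4 RPKM in normoxia and 5.99 to 13.8 RPKM in hypoxia, with a log2 fold change of 0.21 ± 0.14 (limma adjusted p = 0.337). KDM2B stood at 1.26 to 5.25 RPKM in normoxia and 2.14 to 6.37 RPKM in hypoxia, with 0.19 ± 0.14 (adjusted p = 0.414), and was lower in hypoxia in SKBR3 (3.18 and 2.82 RPKM). For both genes the lines differed more than the oxygen levels.

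In the PHD finger group, whose members bind trimethylated H3K4 beside the JmjC domain, the genes differed. KDM7A moved from 0.216 to 0.867 RPKM in SUM1315, from 1.28 to 1.60 RPKM in SKBR3 and from 1.23 to 1.75 RPKM in T47D, a log2 fold change of 0.37 ± 0.12 that did not pass (limma adjusted p = 0.0946). PHF2 was the demethylase that was lower in all 3 lines, at 3.86 and 3.8 RPKM in SUM1315, 5.28 and 4.69 RPKM in SKBR3 and 4.13 and 3.45 RPKM in T47D, without passing (-0.12 ± 0.13, adjusted p = 0.564). PHF8 remained at 0.660 to 0.897 RPKM and was not tested.

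RIOX1, a nucleolar enzyme that hydroxylates a histidine of the ribosomal protein RPL8, was the member that fell. Its level moved from 31.2 to 18.1 RPKM in SUM1315, from 8.43 to 3.82 RPKM in SKBR3 and from 16.4 to 6.32 RPKM in T47D. The drop was seen in each line, while the groups overlapped because hypoxic SUM1315 stood above normoxic T47D and SKBR3. The limma log2 fold change was -0.99 ± 0.15 (adjusted p = 0.00813), and the RPKM ratios were 0.581, 0.453 and 0.386. RIOX1 (ENSG00000170468) spans bases 73490964 to 73493392 of chromosome 14 (plus strand, GRCh38) and shares 3.46% of its exon bases with HEATR4 on the other strand, which did not exceed 0.0788 RPKM.

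Its paralog RIOX2 hydroxylates RPL27A and did not pass. RIOX2 stood at 15.5 and 11.0 RPKM in SUM1315, 4.6 and 4.78 RPKM in SKBR3 and 7.07 and 3.70 RPKM in T47D, a log2 fold change of -0.40 ± 0.17 (limma adjusted p = 0.171). It was thus lower in hypoxia in SUM1315 and T47D and level in SKBR3, each from 1 pair of libraries. RIOX2 shares 27.6% of its exon bases with CRYBG3 on the other strand, which stood at 0.452 to 2.26 RPKM. The values of genes with such overlaps are uncertain, because how strand was treated in counting is not stated in the labels or the table.

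Other protein hydroxylases of the small JmjC class lay lower or level. JMJD4, which hydroxylates the termination factor ETF1, stood at 14.9, 16.6 and 23.9 RPKM in normoxic SUM1315, SKBR3 and T47D and at 12, 11.7 and 16.9 RPKM in hypoxia (-0.42 ± 0.14, limma adjusted p = 0.102). It shares 53.8% of its exon bases with SNAP47 on the other strand (6.24 to 20.6 RPKM). JMJD6, which hydroxylates lysines of the splicing factor U2AF2, went from 10.7 to 10.4, from 5.07 to 4.74 and from 5.95 to 4.56 RPKM (-0.14 ± 0.14, adjusted p = 0.521). Both were lower in every line and neither passed.

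JMJD8, a JmjC protein of the endoplasmic reticulum lumen, had the highest fold change of its class, 0.07 ± 0.16 (limma adjusted p = 0.812). It was higher in hypoxia in T47D alone (63.6 and 81.8 RPKM, log2 ratio 0.36). STUB1, with which it shares 37.4% of its exon bases on the other strand, had a log2 ratio of 0.39 in that line and stood at 40.4 to 183 RPKM. The part of STUB1 reads in the JMJD8 values was not tested.

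KDM8, HSPBAP1 and TYW5 were below the filter in every library. KDM8 stood at 0.416 to 0.767 RPKM in normoxia and 0.153 to 0.666 RPKM in hypoxia, and was lower in all 3 lines. TYW5, which hydroxylates wybutosine in phenylalanine tRNA, stood at 0.608 to 0.881 RPKM and was likewise lower in all 3. HSPBAP1 stood at 0.139 to 0.684 RPKM and went both ways. Of the 8 small JmjC genes 5 were lower in all 3 lines and none was higher in all 3, and the share over all rows without a filter was not counted. Among the 5 tested, 3 were lower in all 3 lines, where 25.2% of all tested genes were. The median log2 fold change of the 5 tested was -0.40 (all tested genes -0.01).

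The mRNAs of 5 proteins hydroxylated by these enzymes and by OGFOD1 were lower in hypoxia in all 3 lines, and 2 of the 5 fell by the test. Among all tested genes 25.2% were lower in all 3 lines and 2.26% fell by the test. RPL27A, the substrate of RIOX2, moved from 101 to 63.4 RPKM in SUM1315, from 123 to 59.1 RPKM in SKBR3 and from 134 to 67.0 RPKM in T47D, with no overlap between the groups (-0.90 ± 0.16, limma adjusted p = 0.0131). ETF1, the substrate of JMJD4, went from 74.9 to 45.9, from 24.9 to 18.3 and from 36.4 to 16.4 RPKM (-0.74 ± 0.17, adjusted p = 0.0334). Leaving out T47D ended the ETF1 call (adjusted p = 0.142). The other 3 did not pass: RPS23 (-0.55 ± 0.15, adjusted p = 0.0586), U2AF2 (-0.53 ± 0.17, adjusted p = 0.084) and RPL8 (-0.29 ± 0.15, adjusted p = 0.256). RPL8 was the most abundant, at 714 to 1766 RPKM. Ribosomal protein genes have processed pseudogenes of similar sequence, so that their values are uncertain.

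**Figure D4:**
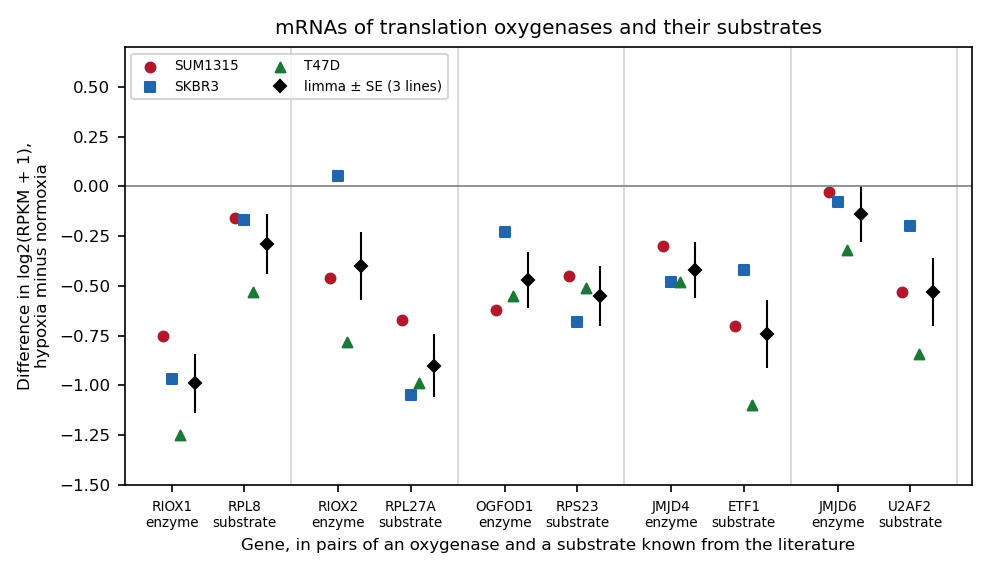
Difference in log2(RPKM + 1) between hypoxia and normoxia for 5 hydroxylases and a known substrate of each, with a coloured symbol per line and limma's fold change ± SE over 3 lines as a black diamond. All 5 substrates lay below 0 in every line, and of the enzymes only RIOX2 in SKBR3 (0.05) lay above it.

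OGFOD1 hydroxylates a proline of the ribosomal protein RPS23 and had the lowest fold change of the OGFOD proteins. It moved from 9.77 to 6.03 RPKM in SUM1315, from 3.94 to 3.20 RPKM in SKBR3 and from 3.05 to 1.77 RPKM in T47D. It was lower in each line, with overlapping groups, and did not pass (-0.47 ± 0.14, limma adjusted p = 0.0674). Without SKBR3, where its ratio was smallest, it did (-0.58, adjusted p = 0.0468), but it did not when SUM1315 (-0.39, adjusted p = 0.193) or when T47D was left out (-0.42, adjusted p = 0.289). OGFOD3 had 0.01 ± 0.14 (adjusted p = 0.973), at 7.83 to 17.0 RPKM. OGFOD2 had -0.10 ± 0.13 (adjusted p = 0.67) at 2.76 to 9.54 RPKM, and shares 67.3% of its exon bases with AC026362.1 on the same strand and 35.9% with ABCB9 on the other.

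ALKBH5, a demethylase of m6A in mRNA, had the highest fold change of the tested AlkB genes and was the only one of the 9 AlkB-type members higher in hypoxia in all 3 lines. It moved from 33.8 to 47.2 RPKM in SUM1315, from 49.8 to 63.4 RPKM in SKBR3 and from 21.3 to 42.8 RPKM in T47D. Each line was higher in hypoxia, T47D by 2.01 times, and the groups overlapped. The fold change of 0.60 ± 0.17 did not pass (limma adjusted p = 0.0635). It passed where only genes at 3 RPKM or more were tested (adjusted p = 0.0461). With SUM1315, SKBR3 or T47D left out it was 0.66, 0.72 and 0.41 and did not pass (adjusted p = 0.102, 0.0546 and 0.286). The other m6A demethylase, FTO, was below the filter: it stood at 1.39 and 0.980 RPKM in SUM1315, 0.730 and 0.851 RPKM in SKBR3 and 0.746 and 1.25 RPKM in T47D, lower in hypoxia in SUM1315 and higher in the other lines.

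The remaining 7 AlkB genes were all tested, had fold changes below 0, and did not pass. ALKBH8, which modifies the wobble uridine of tRNA, had the lowest, -0.39 ± 0.12 (limma adjusted p = 0.083). Its level moved from 8.04 to 5.61 RPKM in SUM1315, from 2.10 to 1.53 RPKM in SKBR3 and from 2.69 to 1.74 RPKM in T47D. ALKBH1, which demethylates tRNA, was lower in all 3 lines as well, at 4.07 to 8.35 RPKM in normoxia and 3.01 to 6.10 RPKM in hypoxia (-0.35 ± 0.13, adjusted p = 0.128). The same held for ALKBH2 (-0.33 ± 0.15, adjusted p = 0.189) and ALKBH3 (-0.25 ± 0.15, adjusted p = 0.321), which repair alkylated bases.

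ALKBH2 stood at 16.8 to 23.7 RPKM in normoxia and 11.6 to 18.1 RPKM in hypoxia, and ALKBH3 at 9.91 to 18.2 and 9.39 to 16 RPKM. ALKBH4 (-0.21 ± 0.15), ALKBH7 (-0.14 ± 0.16) and ALKBH6 (-0.06 ± 0.14) went both ways among the lines. ALKBH7, a mitochondrial member, stood at 45.5 to 82.8 RPKM and was the most abundant AlkB mRNA in every library but hypoxic SKBR3, where ALKBH5 was. Of the exon bases of ALKBH4 25.3% are shared with ORAI2 on the other strand, and of those of ALKBH6 25.1% with AC002116.1 on the same strand. The 8 tested AlkB genes had a median log2 fold change of -0.23.

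The TET enzymes were scarce on polysomes. TET3 was the only one tested and did not pass (-0.15 ± 0.11, limma adjusted p = 0.42), at 1.01 and 0.777 RPKM in SUM1315, 2.53 and 2.05 RPKM in SKBR3 and 1.20 and 1.12 RPKM in T47D. TET2 stood at 1.03 and 1.15 RPKM in SKBR3 and at 0.342 to 0.466 RPKM in the other lines. TET1 did not exceed 0.388 RPKM in any library. TET1 and TET2 were slightly higher in hypoxia in all 3 lines and TET3 lower in all 3, and of the 3 genes SKBR3 held the highest level.

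ASPHD1, a relative of the aspartyl hydroxylase ASPH, was the other member besides KDM3A and KDM5C that was tested and whose oxygen groups did not overlap. The share of all tested genes without overlap was not counted, here or for the other genes so described. ASPHD1 moved from 10.7 to 14.3 RPKM in SUM1315, from 13.9 to 19.6 RPKM in SKBR3 and from 10.8 to 16.8 RPKM in T47D. The log2 fold change was 0.48 ± 0.14 and did not pass (limma adjusted p = 0.0697). Its exons share 14.4% of their bases with KCTD13 on the other strand. ASPH, which hydroxylates EGF-like domains, stood at 4.97 to 6.15 RPKM in normoxia and 5.46 to 6.75 RPKM in hypoxia (0.14 ± 0.13, adjusted p = 0.508). The ASPH gene also encodes junctin and junctate, which lack the enzyme domain, and a value per gene cannot separate them.

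PHYH and TMLHE are metabolic members that start the breakdown of phytanic acid and the synthesis of carnitine. Neither passed between the oxygen levels (-0.25 ± 0.16, limma adjusted p = 0.33, and 0.04 ± 0.12, adjusted p = 0.85), but both set SKBR3 apart. PHYH stood at 0.531 and 0.600 RPKM in SKBR3, at 18.4 and 15.3 RPKM in SUM1315 and at 27.9 and 18.6 RPKM in T47D. TMLHE stood at 0.0117 and 0.0142 RPKM in SKBR3, about 1 read or read pair per library and under the floor of 3, at 2.72 and 3.30 RPKM in SUM1315 and at 1.91 and 1.73 RPKM in T47D.

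In most members the lines differed more than the oxygen levels. The widest difference between line means on the log2(RPKM + 1) scale was larger than the largest oxygen ratio in 31 of the 43 members. How often this held over all genes was not counted. With oxygen as covariate, limma called 20 of the 33 members (60.6%) between SUM1315 and SKBR3, where 69.8% of all tested genes were called. It called 21 (63.6%, against 69.2%) between SUM1315 and T47D and 19 (57.6%, against 57.9%) between SKBR3 and T47D. In no contrast was the share of members called above that of all tested genes, so that line differences are not particular to the family. These contrasts compare 2 libraries per line, 1 at each oxygen level, and describe these lines and not subtypes.

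On the log2(RPKM + 1) scale, which compresses scarce genes such as TMLHE, the largest line difference was that of PHYH, with 3.51 ± 0.19 between SUM1315 and SKBR3 (limma adjusted p = 1.33e-07) and -3.93 ± 0.19 between SKBR3 and T47D (adjusted p = 2.4e-07). JMJD8 had -2.56 ± 0.19 between SUM1315 and T47D, with SKBR3 between them at 32.9 and 30.3 RPKM and SUM1315 at 11.6 and 11.3 RPKM. For RIOX1 the order was SUM1315, T47D, SKBR3, and each neighbouring pair differed (1.14 ± 0.19, adjusted p = 0.000328, and -0.74 ± 0.19 between SKBR3 and T47D, adjusted p = 0.0062). ALKBH8 and RIOX2 were highest in SUM1315 and did not differ by the test between SKBR3 and T47D (-0.18 ± 0.15, adjusted p = 0.321, and -0.11 ± 0.21, adjusted p = 0.659). KDM3A, too, was highest in SUM1315, by 1.01 ± 0.16 over T47D (adjusted p = 0.000263), while KDM4B was highest in T47D, by 1.07 over SKBR3 (the contrast of SKBR3 minus T47D being -1.07 ± 0.17, adjusted p = 0.000404). The 4 members with no line contrast called were KDM5C, PHF2, ASPH and ASPHD1.

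**Figure D5:**
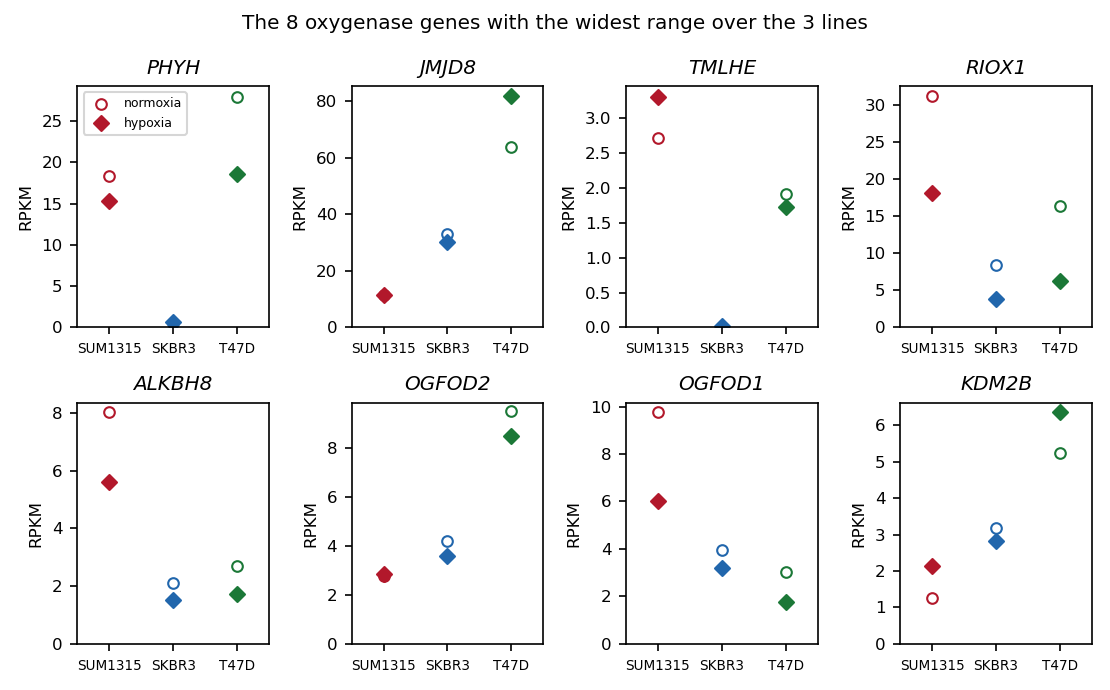
RPKM in each line, with normoxia as open circles and hypoxia as filled diamonds, for the 8 members with the widest range between line means on the log2(RPKM + 1) scale. PHYH and TMLHE stood near 0 in SKBR3, and JMJD8, OGFOD2 and KDM2B were highest in T47D.

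A further 52 tested genes place or read methyl marks on histones, DNA or RNA, act in base excision, or encode flavin-dependent demethylases. Of these 3 passed (5.77%), near the 6.38% of all tested genes that passed in either direction. Of 27 tested histone lysine methyltransferases 1 rose, none fell and the median log2 fold change was 0.00. The one that rose was SETDB1, which methylates H3K9, with 1.38, 2.15 and 1.72 RPKM in normoxic SUM1315, SKBR3 and T47D and 2.70, 3.39 and 2.86 RPKM in hypoxia (0.54 ± 0.12, limma adjusted p = 0.0288). The SETDB1 groups did not overlap, and leaving out SUM1315 (adjusted p = 0.07) or T47D (0.116) ended its call. The 2 flavin-dependent histone demethylases, which also use oxygen but not 2-oxoglutarate, did not pass with limma (1 had an unadjusted p under 0.05): KDM1A had -0.11 ± 0.14 and KDM1B -0.32 ± 0.13. Of 10 tested genes of DNA methylation and base excision, 0 passed with limma (1 had an unadjusted p under 0.05).

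None of the 9 m6A writer genes, METTL16 and the METTL3 complex, passed with limma (3 had an unadjusted p under 0.05), and their median log2 fold change was 0.13. Of 4 tested m6A readers, YTHDF1 fell and YTHDC1 rose. YTHDF1, a cytoplasmic reader, moved from 41.3 to 27.5 RPKM in SUM1315, from 49.4 to 32.3 RPKM in SKBR3 and from 30.6 to 19.5 RPKM in T47D (-0.60 ± 0.14, adjusted p = 0.04). YTHDC1, a nuclear reader, went from 4.07 to 6.16, from 3.0 to 4.26 and from 2.82 to 4.85 RPKM (0.50 ± 0.13, adjusted p = 0.0469). Both calls were lost with any line left out, with adjusted p of 0.124, 0.0647 and 0.118 for YTHDF1 and 0.0853, 0.0541 and 0.237 for YTHDC1 without SUM1315, SKBR3 and T47D.

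Of 11 tested enzymes of tRNA wobble uridine and wybutosine, the pathways of ALKBH8 and TYW5, 2 fell and none rose. Over all tested genes 2.26% fell and 4.12% rose. TRMT12, an enzyme of wybutosine synthesis, moved from 8.28 to 4.95 RPKM in SUM1315, from 26.4 to 15.8 RPKM in SKBR3 and from 9.80 to 5.87 RPKM in T47D (-0.67 ± 0.14, limma adjusted p = 0.0227). Leaving out SUM1315 (adjusted p = 0.0514) or T47D (0.077) ended its call. CTU2, a subunit of the enzyme that thiolates the wobble uridine, went from 9.73 to 5.98, from 6.52 to 4.06 and from 11.4 to 7.73 RPKM (-0.57 ± 0.13, adjusted p = 0.0356). Leaving out any line ended that call, at adjusted p of 0.102 for SUM1315, 0.0597 for SKBR3 and 0.116 for T47D. The list median was -0.02 (all tested genes -0.01).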

How the data were processed

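RNA from the polysome fractions of sucrose gradients was sequenced after NEBNext Ultra library preparation, per the labels' protocols. The authors deposited 1 value per gene and library, which was read here as RPKM, made by the authors from aligned reads, although no header names the unit. The reading rests on the values: multiplied by transcript length, 55.7% to 62.2% of 2916 to 3193 genes gave whole numbers of a library's step (tolerance 0.02), and a count of 3 corresponds to 0.0897 to 0.138 RPKM at 1 kb (counting error only). Trimmomatic, HISAT2, SAMtools and Partek and the build GRCh38 (hg38) are named in the submitters' processing notes. Versions, annotation and strand use were not given in the sources used here. All 6 columns were mapped to samples by their names.

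Values were used as deposited. Genes that reached 1 RPKM in 3 or more of 6 libraries were fitted as log2(RPKM + 1) with limma 3.58.1 (R 4.3.3; mean-variance trend, two-sided, Benjamini-Hochberg over all 10253 genes, threshold 0.05), with cell line as a block. The lines are the labels' pairing: after subtraction of the oxygen group means, both libraries of a line correlated at 0.97, 0.94 and 0.94 across genes. Lines are the only replication and no label states separate cultures, so that p-values measure the spread between these 3 pairs, moderated toward that of other genes (prior degrees of freedom 8.02, residual 2). A single gene's exact sign-flip test cannot go below p = 0.25 with 3 pairs. Fold changes on this scale understate those of scarce genes. Line contrasts used the same model. Transcript lengths, positions and overlaps are from GENCODE release 29. The fit was also run on simulated data with independent noise of the fitted variances, which cannot test the design of 3 pairs or the filter. Members and gene lists were chosen with earlier results of these data known. The text names each member that passed, the highest and lowest of each class, all 5 substrates, and up to 2 rises and falls per list. Alternatives were another pseudocount, filter, scaling, the robust option, no block, and each line left out with the same genes tested. 2 more, removal of length and GC trends and a filter of 0.3 RPKM with a pseudocount of 0.1, were added after seeing the data. Python 3.11.15 with pandas 2.3.3 made the tables.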

Additional observations from a re-analysis of the deposited data

How the results depend on the processing

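The KDM3A, KDM4B and RIOX1 calls were kept under both other pseudocounts, both scalings, the robust option, removal of length and GC trends (1.09, 0.72 and -1.02) and with any line left out. The genes tested were not filtered anew when a line was left out. With limma, 0 genes and 0 members were called without the expression filter (2715 of 27552 genes and 14 members at an unadjusted p under 0.05) and 0 with no replicate block (68 genes and 1 member). The cause was not tested for the filter. A pseudocount of 5 gave 243 genes, 171 higher and 72 lower. Leaving out 1 line at a time, the count ran from 232 to 823 genes (179 to 552 higher, 53 to 271 lower), and 3 to 5 members were called. The lowest gene counts came without T47D and the highest without SUM1315. The 5 without SKBR3 were the same 3 with KDM6B and OGFOD1. The filter of 0.3 RPKM with a pseudocount of 0.1 gave 134 lower genes, and 11 members were called between SKBR3 and T47D without the filter, against 19.

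Fold changes near 0 changed sign: TMLHE to -0.04 with quantile normalization, and JMJD8 to -0.00 and OGFOD3 to -0.07 with length and GC trends removed. With 1 line left out TMLHE ran from -0.04 (without SUM1315) to 0.11, ALKBH6 from -0.16 to 0.08 and ALKBH7 from -0.22 to 0.02 (both without SKBR3), JMJD8 from -0.08 (without T47D) to 0.16 and OGFOD3 from -0.04 (without T47D) to 0.05. None of these passed. Of 549 single-gene values under the alternatives, 489 kept their direction and side of the threshold, 48 lost and 4 gained a call, and 8 changed sign. Most of these values belong to genes without a call in the main fit, so that the 489 do not measure how stable the calls were. Only KDM3A, KDM4B, RIOX1, RPL27A, ETF1, SETDB1, YTHDF1, YTHDC1, TRMT12 and CTU2 had a call to lose, and all 48 losses are theirs. RPS23 gained its call at the filter of 3 RPKM (adjusted p = 0.0469). ETF1, SETDB1, YTHDF1, YTHDC1 and CTU2 lost theirs with a pseudocount of 5 (adjusted p = 0.0572, 0.0537, 0.0587, 0.0774 and 0.0626), the first 4 of them also with quantile normalization (0.0549, 0.0667, 0.0551 and 0.0742), YTHDC1 with median-ratio scaling (0.0552), and ETF1, YTHDF1, YTHDC1 and CTU2 with the filter of 0.3 RPKM (0.0522, 0.0536, 0.0648 and 0.0515). The 10 members below the filter had 7 to 363 reads or read pairs behind each value.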

Other observations

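Among readers of m6A that were below the expression filter, IGF2BP2 and IGF2BP3 were found almost only in SUM1315. IGF2BP2 stood at 15.7 RPKM in normoxia and 10.5 RPKM in hypoxia there, at 0.692 and 0.625 RPKM in T47D and at 0.0561 and 0.109 RPKM in SKBR3. IGF2BP3 went from 1.80 to 3.11 RPKM in SUM1315 and did not exceed 0.0784 RPKM in the other lines. IGF2BP1 did not exceed 0.142 RPKM in any library. These are values of 1 library each, with no test.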
